A study of Homo sapiens with 4 samples.

Results

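The genes examined here encode 10 proteins of the MYC, MAX and MLX network, namely MYC, MAX, MXD1, MXD3, MXD4, MXI1, MNT, MGA, MLX and MLXIP. They were taken by name and are 10 of the 60675 genes in the deposited count tables. The RNA came from LNCaP, a human prostate cancer line that grows in response to androgen, kept in hormone-depleted serum. All 4 cultures were exposed for 72 h to the synthetic androgen R1881 at 1 nM. To this was added vehicle (2 biological replicates) or 50 µM CPI-455, which inhibits the KDM5 enzymes that remove methyl groups from lysine 4 of histone H3 (2 biological replicates). The data therefore show the inhibitor on an androgen background in 1 cell line.

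The vehicle libraries held 19623553 and 20690819 counted fragments and the CPI-455 libraries 9522920 and 5401588, so that 3 fragments were worth 0.145 to 0.153 CPM (fragments scaled to a common library size) in the former and 0.315 to 0.555 CPM in the latter. Of 9 luminal prostate epithelial markers all 9 were detected above the filter on low counts, and their summed level was 883 to 957 normalised CPM in vehicle and 383 to 438 under CPI-455. Of these 9 markers 6 were called lower, while KLK2 had a log2 fold change of 0.56 (FDR = 0.00834 by edgeR) and was not called. The summed level of 3 basal markers was at most 1.24 CPM in any library, with KRT5 at 0 in all 4, and that of 3 leukocyte markers was at most 2.38 CPM. The summed level of 4 stromal markers was 4.03 to 5.02 CPM in vehicle and 10.2 to 10.7 under CPI-455, with LUM at 0 throughout. Of these 4 only COL1A1 passed the filter, and it was called higher at 1.00 (FDR = 0.0195). COL1A2 had 15 fragments in CPI-455 replicate 2 and 0 in CPI-455 replicate 1. The summed level of 3 neuroendocrine markers was 61.6 to 63.3 CPM in vehicle and 73.4 to 91.9 under CPI-455. The neuroendocrine sum was mostly ENO2, with a log2 fold change of 0.50 (FDR = 0.0154, not called). SYP was at 0.69 (FDR = 0.106, not called), while CHGA was called lower at -1.32 (FDR = 0.0176). The part of these shifts in the results was not tested. In bulk RNA, fewer cells of a type and less RNA per cell cannot be told apart.

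Proteins of this network carry a basic helix-loop-helix leucine zipper and bind DNA as pairs, most often at the E-box CACGTG. MYC must pair with MAX to activate growth genes. MXD1, MXI1, MXD3, MXD4 and MNT compete for the same partner and recruit SIN3 and histone deacetylases, which repress transcription. MGA also pairs with MAX and holds together a variant Polycomb complex known as PRC1.6. MLX is a second, parallel partner protein, which pairs with MLXIP (MondoA), a sensor of glucose metabolites. MYC is a common driver of prostate cancer growth.

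All 10 genes passed the filter on low counts, with at least 150 fragments in every library. Calls required a change of 2-fold or more and an FDR under 0.05, where the FDR is the Benjamini-Hochberg adjusted p of edgeR's quasi-likelihood test over the 17600 genes tested. Of the 10 genes, 2 were called, MXD3 as higher and MGA as lower under CPI-455. The share called was 20%, against 42.4% of all genes tested, 21.0% higher and 21.3% lower. With no minimum fold change 7 of the 10 had an FDR below 0.05, against 62.6% of all genes. The 2 groups of libraries did not overlap in normalised CPM for 8 of the 10, against 81.9% of all genes tested. The median log2 fold change of CPI-455 over vehicle was 0.12 over the 10 genes and -0.04 over all genes. It was -0.21 over the 13813 protein-coding genes tested, of which 40.0% were called, 2159 higher and 3372 lower.

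**Figure D1:**
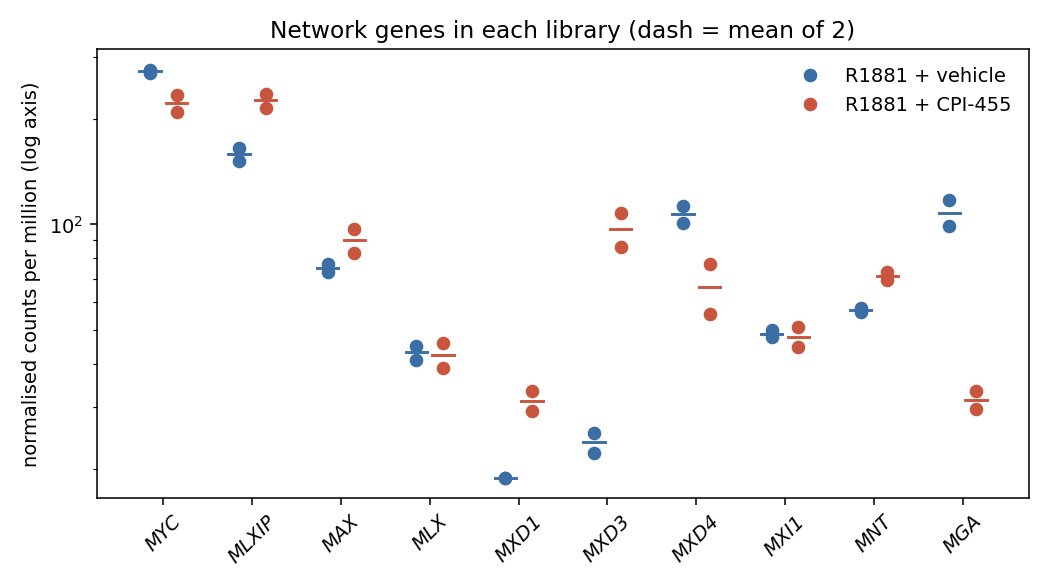
Normalised CPM (log axis) of the 10 network genes in each of the 4 libraries, with points for single libraries and dashes for the mean of 2. MYC was the most abundant in vehicle, and the groups lay far apart for MXD3 and MGA and overlapped for MXI1 and MLX.

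MYC (ENSG00000136997, chromosome 8, forward strand, 3 exon blocks) was abundant in these cells. Its level in the fit lay above that of 96.9% of the genes tested. It was measured at 276 and 270.4 normalised CPM in the vehicle libraries and at 209 and 234 in the CPI-455 libraries. Both CPI-455 libraries lay below both vehicle libraries. The mean was 273 ± 4.12 CPM (SD, n = 2) in vehicle and 222 ± 17.7 (SD, n = 2) under CPI-455. This was a log2 fold change of -0.30 ± 0.11 (SE, 95% interval -0.55 to -0.05, FDR = 0.0378 by edgeR), under the 2-fold minimum. MYC was on the lower side under CPI-455 in all 17 alternative settings, from -0.49 with library totals alone to -0.13 with upper-quartile normalization, but its FDR was below 0.05 in only 9 of them. Of the 17, glmTreat tests against a 2-fold change and so gives high FDR values to genes under that size.

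The genes with the profile most like that of MYC were sought among 6968 genes with a mean of at least 5 on the log2 CPM scale. Likeness was the Euclidean distance between log2 CPM profiles centred on their means over the 4 libraries. The 5 nearest were WDR36 (distance 0.02), CCDC93, H3-3A, CLASP1 and ANKLE2 (distance 0.03 for each of these 4). Their log2 fold changes were -0.30, -0.28, -0.29, -0.30 and -0.30, and none was called. With 4 libraries such a profile holds little beyond the difference between groups.

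MAX (ENSG00000125952, chromosome 14 of GRCh38, 65006174 to 65102695, reverse strand), the obligate partner of MYC, was at 77.0 and 72.9 normalised CPM in vehicle and at 97.3 and 82.7 under CPI-455. The groups did not overlap, but the log2 fold change of 0.27 (SE 0.13, 95% interval -0.02 to 0.56) did not pass the test (FDR = 0.0995 by edgeR). MAX had an FDR below 0.05 in 5 of the 17 alternative settings, with a log2 fold change of 0.54 (FDR = 0.00351) once a length and GC trend was taken out. The gene of the parallel partner protein, MLX (ENSG00000108788, chromosome 17, 42567068 to 42573239, forward strand), was at 45.1 and 41.1 CPM in vehicle and at 45.8 and 38.9 under CPI-455. These values overlapped, and the log2 fold change of MLX was -0.02 (95% interval -0.36 to 0.32, FDR = 0.923). Of the exon bases of MLX 18.1% are shared with PSMC3IP on the opposite strand, and fragments falling there were not counted for either gene.

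MLXIP (ENSG00000175727, chromosome 12, 122078722 to 122147347, forward strand), the partner of MLX, was at 166 and 151 normalised CPM in vehicle and at 236 and 215 under CPI-455. Both CPI-455 libraries lay above both vehicle libraries. Its log2 fold change was 0.51 (SE 0.11, FDR = 0.0037), a 1.43-fold higher level that did not reach the 2-fold minimum. All 17 alternative settings gave a higher level under CPI-455, and in 15 of them the FDR was below 0.05.

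Among the network genes named at the start, MXD3 rose the most under CPI-455. The gene (ENSG00000213347) lies on the reverse strand of chromosome 5 from 177301461 to 177312757 and encodes an antagonist of MYC that is known for expression in proliferating cells. It had 537 and 487 fragments in vehicle and 961 and 434 under CPI-455, in CPI-455 libraries of lower depth. Normalised, these were 25.4 and 22.3 CPM in vehicle and 108 and 86.1 CPM under CPI-455. The lowest CPI-455 library was thus well above the highest vehicle library. The log2 fold change was 2.03 (SE 0.16, FDR = 6.460e-06 by edgeR), or 4.08-fold, and it remained between 1.83 and 2.20 and called in all 17 alternative settings.

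MXD3 overlaps its neighbours, and 40.4% of its exon bases are shared with another gene in the annotation used for counting. RAB24, on the same strand from 177301198 to 177303744, shares 926 exon bases with it, and PRELID1, on the opposite strand, shares 1158. Fragments on shared bases were not assigned to either gene. RAB24, a small GTPase gene, had 267 and 243 fragments in vehicle and 468 and 247 under CPI-455. Its log2 fold change was 2.10 (SE 0.17, FDR = 7.214e-06), close to that of MXD3. PRELID1 had a log2 fold change of -0.11 (FDR = 0.583). Whether RAB24 transcripts added fragments to the MXD3 count, or the reverse, was not tested.

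MXD4 and MXD1 had log2 fold changes of opposite sign, both under the 2-fold minimum. MXD4 (ENSG00000123933, chromosome 4, 2247432 to 2262294, reverse strand), an antagonist linked to differentiation, was at 101 and 113 normalised CPM in vehicle and at 76.9 and 55.3 under CPI-455. The groups did not overlap, although the CPI-455 replicates differed by 0.47 on the log2 scale, the widest replicate gap of the 10 genes. The log2 fold change of MXD4 was -0.68 (SE 0.16, FDR = 0.0051), and it was -0.97 without CPI-455 replicate 1 and -0.52 without CPI-455 replicate 2. MXD1 (ENSG00000059728, chromosome 2, 69897688 to 69942945, forward strand), the founding antagonist of MYC, was at 18.9 CPM in each vehicle library and at 29.2 and 33.5 under CPI-455. Its log2 fold change was 0.72 (SE 0.17, FDR = 0.00517). MXD1 was called once a length and GC trend was taken out of each library, when its log2 fold change was 1.23 (FDR = 1.151e-04). In its exons 42.7% of the bases are G or C, a low share it has in common with MGA.

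MXI1 (ENSG00000119950, chromosome 10, 110207605 to 110287365, forward strand), also known as MXD2, was at 49.9 and 47.6 normalised CPM in vehicle and at 44.8 and 50.8 under CPI-455. The groups overlapped. The log2 fold change was -0.04 (95% interval -0.36 to 0.28, FDR = 0.843), an interval that holds no change as large as 2-fold. MNT (ENSG00000070444, chromosome 17, 2384060 to 2401118, reverse strand), the most widely expressed MYC antagonist, was at 57.7 and 56.1 CPM in vehicle and at 69.5 and 73.2 under CPI-455. Both CPI-455 libraries were above both vehicle libraries. Its log2 fold change of 0.32 (SE 0.13, FDR = 0.0479) was under the 2-fold minimum and had an FDR below 0.05 in 9 of the 17 alternative settings.

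MGA fell under CPI-455 more than any other of the 10 genes. The gene (ENSG00000174197) lies on the forward strand of chromosome 15 from 41621224 to 41773081 and has 27 exon blocks. Its fragments numbered 2090 and 2560 in vehicle and 297 and 150 under CPI-455. Normalised, these were 98.9 and 117 CPM in vehicle and 33.4 and 29.7 CPM under CPI-455. The groups lay far apart compared with either pair of replicates. The log2 fold change was -1.77 (SE 0.15, FDR = 9.397e-06 by edgeR), a 3.40-fold lower level. It ranged from -1.96 to -1.45 over the 17 alternative settings and was called in all of them. With exons of 17651 bases in sum and 42.4% G or C, MGA is the longest of the 10 genes and the lowest in GC content, and taking out that trend gave the smallest of these falls.

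**Figure D2:**
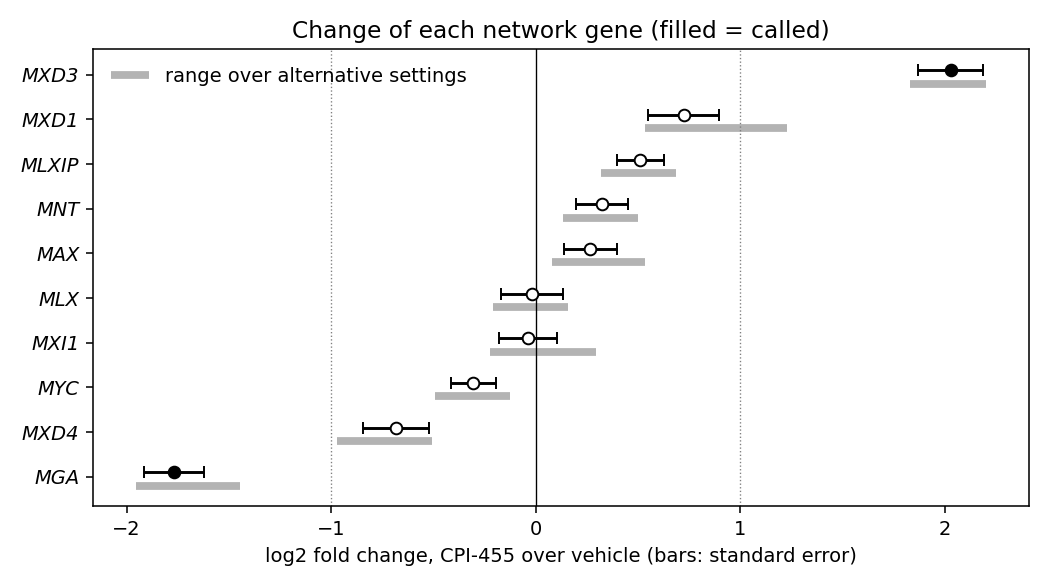
Log2 fold change of CPI-455 over vehicle for each gene (circle, with its standard error as a bar), and the range over the main fit and the 17 alternative settings as a grey band. Filled circles mark MXD3 and MGA, the genes called in the main fit, and dotted lines mark a 2-fold change in each direction.

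The promoters of the called genes, MXD3 and MGA, are shown because these are the members that passed both the FDR threshold and the 2-fold minimum. The sequences come from RefSeq (GRCh38.p14) and run from upstream of the transcription start to just past it on the strand of the gene. They span 300 bases each and were found for 9 of the 10 genes. The gene without a window was MYC, so its promoter was not searched. For MGA the window is that of the start site at the first base of the gene in the counting annotation. The E-box CACGTG was searched, which reads the same on both strands, together with the variant CACGCG on either strand. Capitals mark a match.

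MXD3 promoter, chr5:177312703-177313002, reverse strand: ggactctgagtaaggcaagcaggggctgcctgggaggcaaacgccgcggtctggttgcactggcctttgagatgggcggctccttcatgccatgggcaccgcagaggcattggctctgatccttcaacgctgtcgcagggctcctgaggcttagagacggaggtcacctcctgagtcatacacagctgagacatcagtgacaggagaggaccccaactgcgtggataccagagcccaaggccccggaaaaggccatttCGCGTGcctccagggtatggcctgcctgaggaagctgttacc
MGA promoter, chr15:41620974-41621273, forward strand: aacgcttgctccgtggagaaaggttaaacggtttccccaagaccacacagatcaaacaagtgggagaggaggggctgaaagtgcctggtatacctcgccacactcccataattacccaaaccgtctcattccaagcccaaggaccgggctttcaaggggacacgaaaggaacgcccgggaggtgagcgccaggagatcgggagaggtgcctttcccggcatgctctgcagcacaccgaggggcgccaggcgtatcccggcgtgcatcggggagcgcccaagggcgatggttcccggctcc

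Neither window held CACGTG, and the MXD3 window held the variant once, on the opposite strand. RefSeq gives further start sites of MGA downstream, and the variant was found at one of them. The variant was found in windows of 3 of the 9 genes, MXD3, MXI1 and MGA. The E-box CACGTG was present in the windows of 3 of the 9 genes, MXD4, MNT and MLX. Over all 35116 promoter windows of the same length 7.26% held CACGTG and 11.4% held CACGCG on either strand. By gene, as the members are counted here, the shares were 8.77% and 13.5% of 27305 genes. The 3 E-boxes are shown with the bases around them, the motif in capitals.

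MXD4, chr4:2262330-2262359, reverse strand: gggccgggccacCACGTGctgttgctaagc
MNT, chr17:2401236-2401265, reverse strand: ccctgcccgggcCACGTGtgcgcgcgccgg
MLX, chr17:42567038-42567067, forward strand: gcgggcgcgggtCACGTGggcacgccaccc

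Counted from the RefSeq start sites, which differ for these genes from the gene ends in the counting annotation given here, the motif began 238 bases upstream for MXD4, 193 for MNT and 50 for MLX. These 3 genes differed in the sign of their log2 fold change, at -0.68, 0.32 and -0.02, and none was called. A match of letters is a description of these windows and not a measured binding site.

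Levels of different genes were compared as normalised CPM per kilobase of exon. With vehicle MYC was the highest at 91.1 ± 1.37 (SD, n = 2), followed by MAX at 16.9 ± 0.645 and MXD4 at 15.2 ± 1.21. MLXIP at 11.4 ± 0.731, MXI1 at 10.6 ± 0.364 and MLX at 10.1 ± 0.656 came next, then MNT at 6.52 ± 0.124, MGA at 6.12 ± 0.732, MXD3 at 4.63 ± 0.429 and MXD1 at 2.98 ± 0.00228. Neighbours in this order did not overlap between libraries, apart from MXI1 with MLX and MNT with MGA. With CPI-455 MYC remained the highest at 73.9 ± 5.89 (SD, n = 2). MAX at 20.3 ± 2.33, MXD3 at 18.8 ± 3.02 and MLXIP at 16.2 ± 1.07 followed, each overlapping the next. MGA came last at 1.79 ± 0.146. When the exon bases shared with other genes were left out of the length, MXD3 was at 7.77 ± 0.720 in vehicle, above MNT (7.43 ± 0.141), and at 31.6 ± 5.07 under CPI-455, above MAX (21.2 ± 2.43).

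Summed over MXD1, MXD3, MXD4, MXI1 and MNT, the RNA of the MYC antagonists was at 39.7 and 40.1 CPM per kilobase in vehicle and at 54.1 and 49.2 under CPI-455. The ratio of MYC to this sum was 2.32 and 2.25 in vehicle and 1.29 and 1.59 under CPI-455. Without MXD3 in the sum it was 2.65 and 2.52 in vehicle and 2.10 and 2.40 under CPI-455. MYC was 67.0% and 65.8% of the summed level of all 7 MAX partners in vehicle and 55.4% and 60.5% under CPI-455. MXD3 was 14.9% and 12.9% of the summed level of the 4 MXD genes in vehicle and 45.4% and 40.9% under CPI-455. MXD4 was 43.3% and 47.6% of it in vehicle and 23.6% and 19.2% under CPI-455. MXD4 was thus the main MXD transcript in vehicle and MXD3 under CPI-455. These ratios and shares are descriptions that were not tested, and they concern RNA and not protein. They use the full exon length, including the 40.4% of MXD3 exon bases that are shared and received no fragments. The part of MXD3 in them would be larger in both groups with those bases left out, as for its single levels above.

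**Figure D3:**
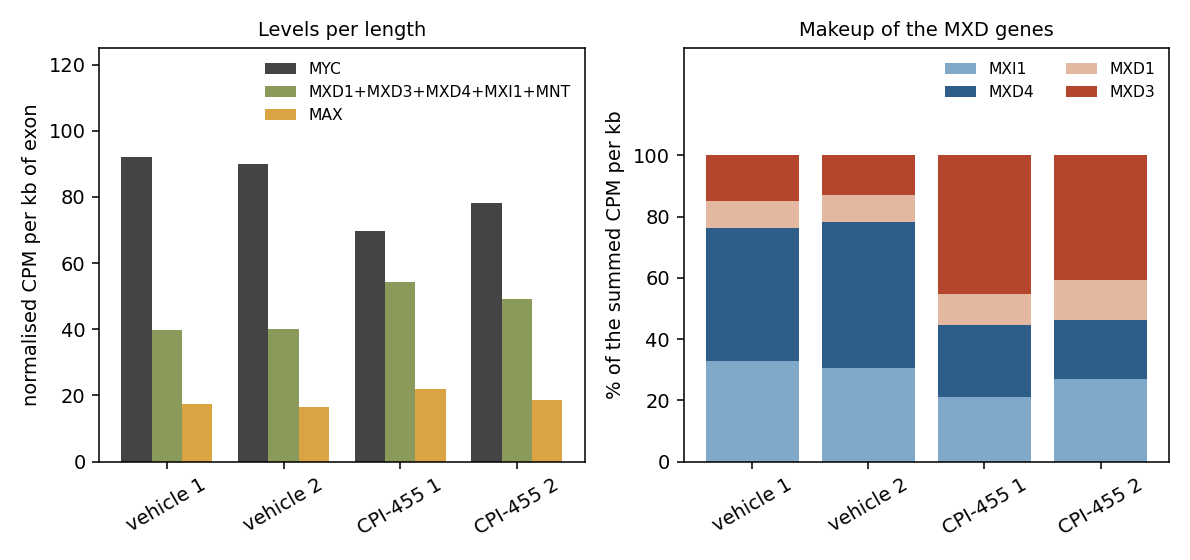
Left, bars of normalised CPM per kilobase of exon for MYC, for the sum of MXD1, MXD3, MXD4, MXI1 and MNT, and for MAX in each library; right, the percentage of each MXD gene in the summed level of the 4. With the full exon length, shared bases included, MXD3 went from 14.9% and 12.9% in vehicle to 45.4% and 40.9% under CPI-455.

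Genes that act with the network were examined in 8 lists. Among its closest relatives, MLXIPL (ChREBP), the second partner of MLX and a glucose-responsive factor of the liver, had 284 and 214 fragments in vehicle and 1356 and 584 under CPI-455. It rose from 11.6 ± 2.58 CPM (SD, n = 2) to 134 ± 25.9 (SD, n = 2), a log2 fold change of 3.53 (SE 0.20, FDR = 1.290e-06). MYCN, a paralog of MYC, had 26 fragments in each vehicle library and 0 in both CPI-455 libraries. MYCN passed the filter on low counts only through the vehicle libraries, where it was high. Its call as lower (FDR = 0.0057 by edgeR) therefore adds no support to these counts. Against a limit of 3 fragments over the CPI-455 group it was at least 5.62-fold lower. MYCL was not called, with a log2 fold change of 0.30 (FDR = 0.241).

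Of the 10 cofactors of MYC 3 were called higher and 0 lower, 30% in all and below the 42.4% over the whole table, and their log2 fold changes had a median of 0.23. KAT2A, the acetyltransferase GCN5, rose from 99.5 ± 11.6 to 586 ± 77.6 CPM (SD, n = 2), a log2 fold change of 2.56 (FDR = 1.071e-06). Of its exon bases 10.7% are shared with another gene. ZBTB17 (MIZ-1), through which MYC represses genes, rose by 1.66 on the log2 scale (FDR = 3.886e-05). KAT5 was the other gene called, although 29.9% of its exon bases are shared with other genes. TRRAP, the scaffold that MYC recruits, had a log2 fold change of -0.43 (FDR = 0.00818), under the 2-fold minimum. Of the 10 regulators of MYC stability 1 was called higher and 3 lower, with a median of 0.16. That is 40%, close to the 42.4% over all genes. PIM1, a kinase that stabilises MYC, rose by 1.27 on the log2 scale. GSK3B, which marks MYC for degradation, had a log2 fold change of -1.88 (FDR = 9.966e-06), and the ubiquitin ligase gene SKP2 one of -1.31 (FDR = 1.303e-05). HUWE1, a further ligase gene, was also called lower.

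Of the 15 genes of the SIN3 and histone deacetylase corepressor, which the MXD proteins and MNT recruit, 1 was called higher and 3 lower, 26.7% in all against 42.4% of all genes. SIN3A, a scaffold of the complex, had a log2 fold change of -1.46 (FDR = 1.638e-05), SAP130 one of -1.20 and ARID4B one of 1.32. SIN3B, the other SIN3 gene of the list, went the opposite way at 0.77 (FDR = 8.479e-04) and was not called. Of the exon bases of ARID4B 15.7% are shared with other genes. The median of the list was 0.17. Of the 13 partners of MGA in PRC1.6, some of which also belong to other lists, 1 was called higher and 2 lower, 23.1% against the same 42.4%, and the median was -0.56. TFDP1 had a log2 fold change of -1.19 (FDR = 4.916e-05), and E2F6, a DNA-binding subunit, one of -1.07 (FDR = 0.00446). E2F6 was at 31.1 and 29.8 CPM in vehicle and at 10.9 and 19.0 under CPI-455. RING1, a ubiquitin ligase of Polycomb complexes, rose by 1.35 on the log2 scale. L3MBTL2 and PCGF6, which define the complex together with MGA, were not called, with log2 fold changes of -0.57 (FDR = 0.00919) and -0.0014 (FDR = 0.993).

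Of 5 targets of MLX and MLXIP 1 was called higher and 1 lower, a share of 40% that is near the 42.4% of all genes. TXNIP, the best known of them and an inhibitor of glucose uptake, rose from 8.45 ± 0.163 to 35.3 ± 2.47 CPM (SD, n = 2), a log2 fold change of 2.06 (SE 0.19, FDR = 1.541e-05). ARRDC4, its close relative, was at 0.43 (FDR = 0.0887) and was not called. HK2, the gene for hexokinase 2, fell from 314 ± 28.1 to 59.9 ± 2.57 CPM (SD, n = 2), with a log2 fold change of -2.39 (FDR = 9.441e-07). PFKFB3 at -0.86 (FDR = 7.418e-04) and KLF10 at -0.29 (FDR = 0.0889) were not called.

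Targets that MYC is known to activate did not move one way. Of 32 such genes 6 were called higher and 7 lower, 40.6% in all against 42.4% over the whole table, and their log2 fold changes had a median of -0.02. NOP58, a component of box C/D ribonucleoproteins, rose by 1.39 on the log2 scale (FDR = 1.235e-05). EIF4A1, a translation initiation helicase gene, had a fold change of 16.0 (FDR = 6.058e-07), but 48.6% of its exon bases are shared with a readthrough gene and with small nucleolar RNA genes, so its level is uncertain. CDC25A, a phosphatase of cell cycle entry, had a log2 fold change of -1.56 (FDR = 3.774e-05), and RRS1, a ribosome assembly factor gene, one of -1.36 (FDR = 1.951e-04). RRS1 shares 11.4% of its exon bases with other genes, and CDK4, also called lower, shares 43.2%. Of 8 genes that MYC is known to repress 1 was called higher and 2 lower, 37.5% in all. GADD45A rose by 1.70 on the log2 scale (FDR = 3.789e-06), while CDKN1A, the gene for the cell cycle inhibitor p21, had a log2 fold change of -1.85 (FDR = 5.564e-06) and CEBPA one of -1.82 (FDR = 4.118e-04), the latter with 43.4% of its exon bases shared. Over the 8 lists the share of genes called ran from 23.1% for the MGA complex to 66.7% for the relatives of MYC and MLXIP, the latter list holding 3 genes.

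**Figure D4:**
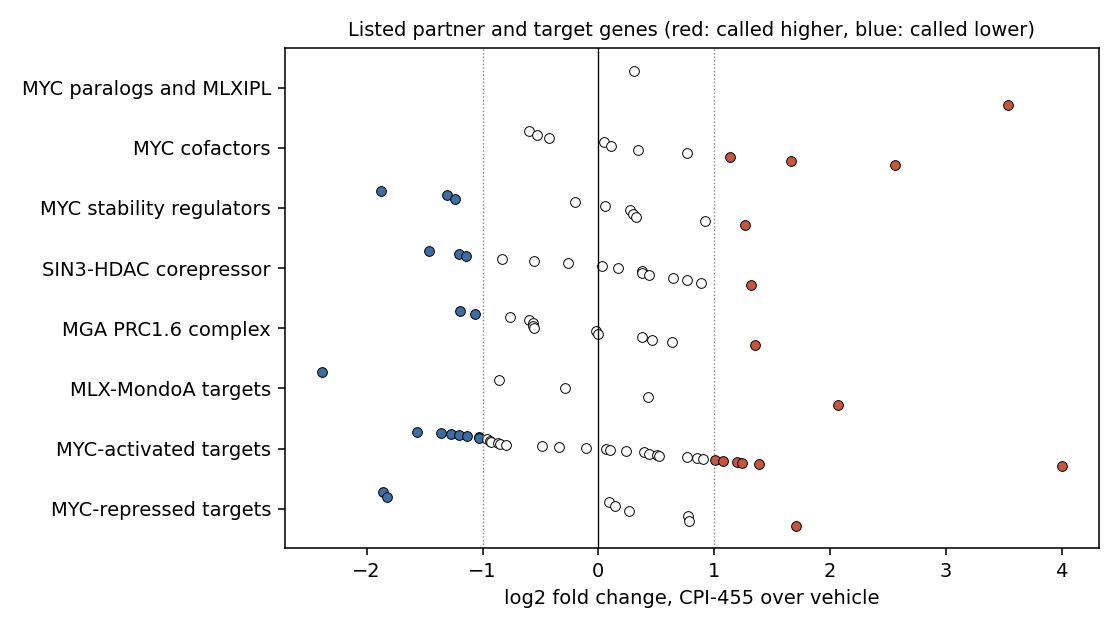
Log2 fold change of CPI-455 over vehicle for each listed gene (points), by list, with genes called higher in red, called lower in blue and not called in white; MYCN is left out because it had no fragment under CPI-455. The genes that MYC activates spread on either side of 0, around a median of -0.02.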

How the data were processed

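RNA-seq of 4 LNCaP cultures was used, with groups taken from the sample labels. The authors trimmed reads (TrimGalore), mapped them (STAR, GRCh38) and assigned fragments to exons with featureCounts v1.5.0-p1 (Ensembl release 83). They deposited raw counts per gene, without normalization. Per the file headers, strand was not used, and fragments matching several places or several genes were left out, so overlapping genes are measured less surely. Gene positions are those of the deposited files. Symbols were matched to gene identifiers, and promoter sequences are from RefSeq.

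All genes were fitted with edgeR 4.0.16 in R 4.3.3 (TMM normalization, filterByExpr with a minimum of 10 counts, quasi-likelihood test, no covariates). The standard error is the log2 fold change divided by the root of the F statistic. Normalised CPM is scaled by TMM. The script was tested on simulated data. The alternatives were other normalizations and filters, DESeq2 1.42.0, edgeR's likelihood-ratio test and glmTreat, a stricter FDR of 0.01, a replicate block, offsets that take out a length and GC trend (mgcv 1.9.3), and leaving out each library. Thinning of all libraries to the smallest total was added after seeing the data.

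The members and lists were chosen with earlier results of these data known. Beside the members, the text names every gene of lists of up to 5, and of longer lists the 2 called higher and 2 called lower with the largest change among those whose average log2 CPM reached 3. The 5 genes closest to MYC by profile are also named. KAT5, TRRAP, HUWE1, SIN3B, L3MBTL2, PCGF6 and CDK4 and the neighbours of MXD3 were named after their values were seen. Counting error alone limits a level to 3 fragments. P-values were computed over 2 libraries per group.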

Additional observations from a re-analysis of the deposited data

How the results depend on the processing

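Of 170 values of single network genes under alternative settings, 155 kept their direction and their side of the threshold, and 2 passed it anew. MXD3 and MGA were called in every setting, so 2 members were called in each, except that 3 were called once a length and GC trend was taken out, with or without the replicate block, when MXD1 (1.23 in both) made 2 called higher. Testing against a 2-fold change with glmTreat is stricter by construction and called 22 of the listed genes in place of 34, 11 of them lower in place of 19, and 4805 of all genes in place of 7454. The balance of listed genes turned with scaling, from 15 called higher and 19 lower to 12 and 26 with library totals alone, 19 and 14 with upper-quartile normalization and 19 and 13 with the length and GC trend taken out. The other 13 values changed sign, all of MXI1 and MLX, and the cause was not tested. MXI1 was at 0.14 with upper-quartile normalization, 0.0089 with at least 10 counts in every library, 0.30 with the length and GC trend taken out, 0.30 with the replicate block as well, and 0.14 with thinned libraries. MLX was at 0.16, 0.024, 0.080, 0.072 and 0.070 in the same settings. With each library left out in turn MXI1 ranged from -0.17 to 0.039 and MLX from -0.17 to 0.044. The labels give same-numbered cultures a number and do not say whether they were paired. Their deviations had a correlation of 0.04, which cannot exclude a pairing, because noise in single libraries also lowers it. The replicate block alone called 7167 of all genes in place of 7454 and the same number of members. The median of all genes was -0.04, and it was 0.14 with upper-quartile normalization and -0.23 with library totals alone. Values such as those of MYC and MNT are relative to that shift. With no filter the median was -0.41, but over 33392 genes in place of 17600. That value therefore mixes a different set of genes with the scale. In a fit without 1 library the lone sample of its group is assumed to vary like the other group. Both CPI-455 libraries were the shallower, which limits low genes such as MYCN more there.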
